A study of Mus musculus with 2 samples.

Results

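Hmgcs1, Idi1, Fdps, Fdft1, Sqle, Cyp51 and Insig1 are genes of cholesterol synthesis and its control, and they were followed here across the glia and neurons of the mouse retina. They were taken by gene symbol from the deposited matrices, where all 7 were found once each among 32285 features, and the rule names them by symbol alone. The cells were retinal cells with tdTomato fluorescence from mice 14 weeks of age, with the Cre-dependent reporter Gt(ROSA)26Sortm9(CAG-tdTomato)Hze/J on a B6.Cg background, sorted 8 weeks after an adeno-associated virus (AAV) had been injected. By its title, the series asks again whether Müller cells, the radial glia that span the retina, become retinal ganglion cells in the living eye. There were 2 libraries, 1 per group, labelled Muller and MullerControl (the control library). Muller was read as the test group of the protocol, since the other label says control. All mice carried the reporter and all received a virus, and the labels do not say what either virus carried, which promoter drove it or how many mice were pooled. The protocol gives a reporter-positive rate of about 4.9% for the test and 10% for the control group, 60000 and 120000 sorted cells, and 27000 cells loaded per library.

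Cholesterol is made in the cell from acetyl-CoA. HMG-CoA synthase leads into the mevalonate pathway, isoprenoid units are then joined to farnesyl diphosphate, squalene synthase commits farnesyl diphosphate to sterols, and squalene epoxidase and later enzymes close and trim the ring. When sterol is scarce in the membrane of the endoplasmic reticulum, the SCAP protein carries SREBP transcription factors to the Golgi, where they are cut and released to switch on these genes, and when sterol is plentiful INSIG proteins hold SCAP back. Neurons of the adult brain are generally held to make less cholesterol than glia and to receive part of it from glia in particles that carry apolipoprotein E, and in the retina Müller glia are known for their apolipoprotein E.

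The stretch before the transcription start is where SREBP and its partner factors NF-Y and Sp1 are known to bind in genes of this pathway, so the 250 bases before the start are shown for the 4 of the 7 genes with an entry in the promoter table, Hmgcs1, Insig1, Idi1 and Cyp51. The sequences are those of RefSeq on GRCm38.p6, read 5′ to 3′ on the strand of the gene, with the start as RefSeq gives it. They lie at chr13:119690101-119690350 on the plus strand for Hmgcs1, chr5:28071162-28071411 on the plus strand for Insig1, chr13:8885356-8885605 on the plus strand for Idi1 and chr5:4104698-4104947 on the minus strand for Cyp51. The gene positions given further below are from GENCODE. They begin upstream of the RefSeq start for Insig1, Idi1 and Cyp51, so the ends of these windows lie inside the gene by GENCODE. Capitals mark CCAAT on either strand, the letters read by NF-Y, and TCACNCCAC on either strand, the core of the sterol regulatory element read by SREBP.
Hmgcs1: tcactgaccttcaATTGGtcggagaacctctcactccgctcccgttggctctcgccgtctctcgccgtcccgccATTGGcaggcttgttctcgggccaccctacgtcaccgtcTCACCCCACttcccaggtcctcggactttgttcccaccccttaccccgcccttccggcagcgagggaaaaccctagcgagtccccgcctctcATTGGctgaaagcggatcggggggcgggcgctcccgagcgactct
Insig1: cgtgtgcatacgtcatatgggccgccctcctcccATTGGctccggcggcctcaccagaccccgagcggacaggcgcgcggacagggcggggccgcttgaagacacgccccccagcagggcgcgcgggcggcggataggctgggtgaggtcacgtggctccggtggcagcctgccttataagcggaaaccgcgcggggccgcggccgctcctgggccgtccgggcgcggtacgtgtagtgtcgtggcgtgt
Idi1: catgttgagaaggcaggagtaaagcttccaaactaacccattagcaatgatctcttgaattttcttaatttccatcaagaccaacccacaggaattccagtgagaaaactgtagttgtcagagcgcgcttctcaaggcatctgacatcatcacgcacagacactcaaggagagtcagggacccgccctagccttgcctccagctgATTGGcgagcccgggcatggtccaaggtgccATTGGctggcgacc
Cyp51: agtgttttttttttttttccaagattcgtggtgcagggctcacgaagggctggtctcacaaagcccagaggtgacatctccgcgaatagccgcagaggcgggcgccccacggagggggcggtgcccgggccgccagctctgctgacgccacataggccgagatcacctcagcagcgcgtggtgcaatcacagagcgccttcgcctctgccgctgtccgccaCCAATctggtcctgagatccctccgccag
CCAAT stood in 4 of the 4 windows, with 3 matches in Hmgcs1, 2 in Idi1 and 1 each in Insig1 and Cyp51, and in 33.8% of all 32851 windows of that length. The CCAAT matches of Idi1 and Cyp51 lie past the GENCODE start of the gene. The Sp1 letters GGGCGG, searched on both strands and not capitalized, stood in 4 of the 4 windows and in 32.7% of all windows. TCACNCCAC was found in the window of Hmgcs1 alone among the 4 and in 1.05% of all windows. Its looser form TCACNNCAC, which overlaps it, matched the same 1 window of the 4 and 3.11% of all. The E-box CACGTG, a palindrome, stood in the Insig1 window and in 6.02% of all windows. A match is a string of letters, and no binding was measured here.

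The files held 12316 barcodes for Muller and 11309 for MullerControl, with medians of 1478 and 1552 unique molecular identifiers (UMIs, 1 per captured transcript) per barcode and 40 barcodes shared between the libraries. Cells that passed the filters numbered 10757 and 9538. No cell annotation was used. A cell was given to a glial, microglial or neuronal class other than rods where at least 4 markers of that class were detected, the next list had at most 0.5 times as many and rod markers took under 4% of its UMIs. Rod-like cells needed at least 6 rod markers and 4% of UMIs. These cuts were set after the data had been seen. Müller-like cells numbered 824 and 523, microglia-like 107 and 164, rod-like 3655 and 5982, cone-like 351 and 839, bipolar-like 2791 and 820, and amacrine-like 482 and 159, the inhibitory interneurons of the inner retina. Retinal ganglion cell markers gave 1 and 0 cells, horizontal cell markers 2 and 1, astrocyte markers none in either library, pigment epithelium markers 1 and 2 and vascular markers 1 and 9, too few to describe. There were 2542 and 1039 unassigned cells, and 110 and 49 Müller-like cells held exactly 4 markers.

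Müller-like cells bore out their name with 8 Müller genes that the gate had not used, Glul, Clu, Cp, Ptn, Cd9, Spc25, Id3 and Dbi, which made up a median of 1.84% and 2.46% of the UMIs of a Müller-like cell. All 8 were at least 2-fold higher than in the mean of the neuron-like classes in both libraries, with log2 ratios for the iron oxidase gene Cp of 6.66 and 8.24, for Cd9 of 6.29 and 7.61, for Spc25 of 5.63 and 6.89 and for Id3 of 5.72 and 7.09. The summed level of those 8 genes in rod-, cone-, bipolar- and amacrine-like cells was 2.88 to 4.00% of the Müller-like level in the Muller library and 1.23 to 2.03% in the control library. This gauges transcripts free in the droplets. The 7 cholesterol genes lay at 11.9% or more of their Müller-like level in every neuron-like class of both libraries, the lowest being Insig1 in cone-like cells of the Muller library. The part of free transcripts in the levels of the 7 genes was not tested. In microglia-like cells most of the sum of the 8 Müller genes came from Cd9, at 1752 and 1857 CPM, and the median of the 8 genes there stood at 0.777% and 0.518% of its Müller-like level. Markers of amacrine-like cells reached 11.6% and 11.3% of their amacrine-like level in Müller-like cells, against 2.37 to 3.77% and 0.498 to 0.845% in rod-, cone- and bipolar-like cells, and their part in the place of Müller-like cells below was not tested. Müller-like cells carried rod markers at a median of 0.573% and 0.330% of UMIs. Their median depth was 1851 and 2476 UMIs, rod-like cells had 1110 and 1398, and cone-, bipolar-, amacrine- and microglia-like cells had 2454 to 4939.5.

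Levels below are UMIs of a gene per 1000000 UMIs of the class (CPM), summed over the cells of 1 library, with exact Poisson 95% intervals in brackets. Ratios are log2 with 1 count added and carry 95% intervals. All intervals cover counting error only, leave out variation between cells, mice and sorts, and p-values were not computed because each group has 1 library. Levels of different genes are not compared with each other.

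Across the 6 classes the cholesterol genes were not a glial group. Amacrine-like cells held the highest level of each of the 7 genes in both libraries. Müller-like cells came second for Hmgcs1, Idi1, Sqle and Insig1, above rod-, cone- and bipolar-like cells, but below those classes or not separated from them for Fdps, Fdft1 and Cyp51. Microglia-like cells were the lowest class for 7 of 7 genes in the Muller library and 5 of 7 in the control library. They were separated from the next class only for Idi1, Fdft1 and Cyp51 in the former and for Fdft1 and Cyp51 in the latter. Their counts in the Muller library were 2 to 12 UMIs per gene. How often microglia-like cells rank last over all genes is not given here. The summed level of the 7 genes in Müller-like cells was 412 CPM (383 to 442) and 383 CPM (354 to 415), against 923 and 934 CPM in amacrine-like, 323 and 251 CPM in rod-like, 324 and 286 CPM in cone-like, 304 and 262 CPM in bipolar-like and 105 and 157 CPM in microglia-like cells, in the order Muller, MullerControl.

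**Figure D1:**
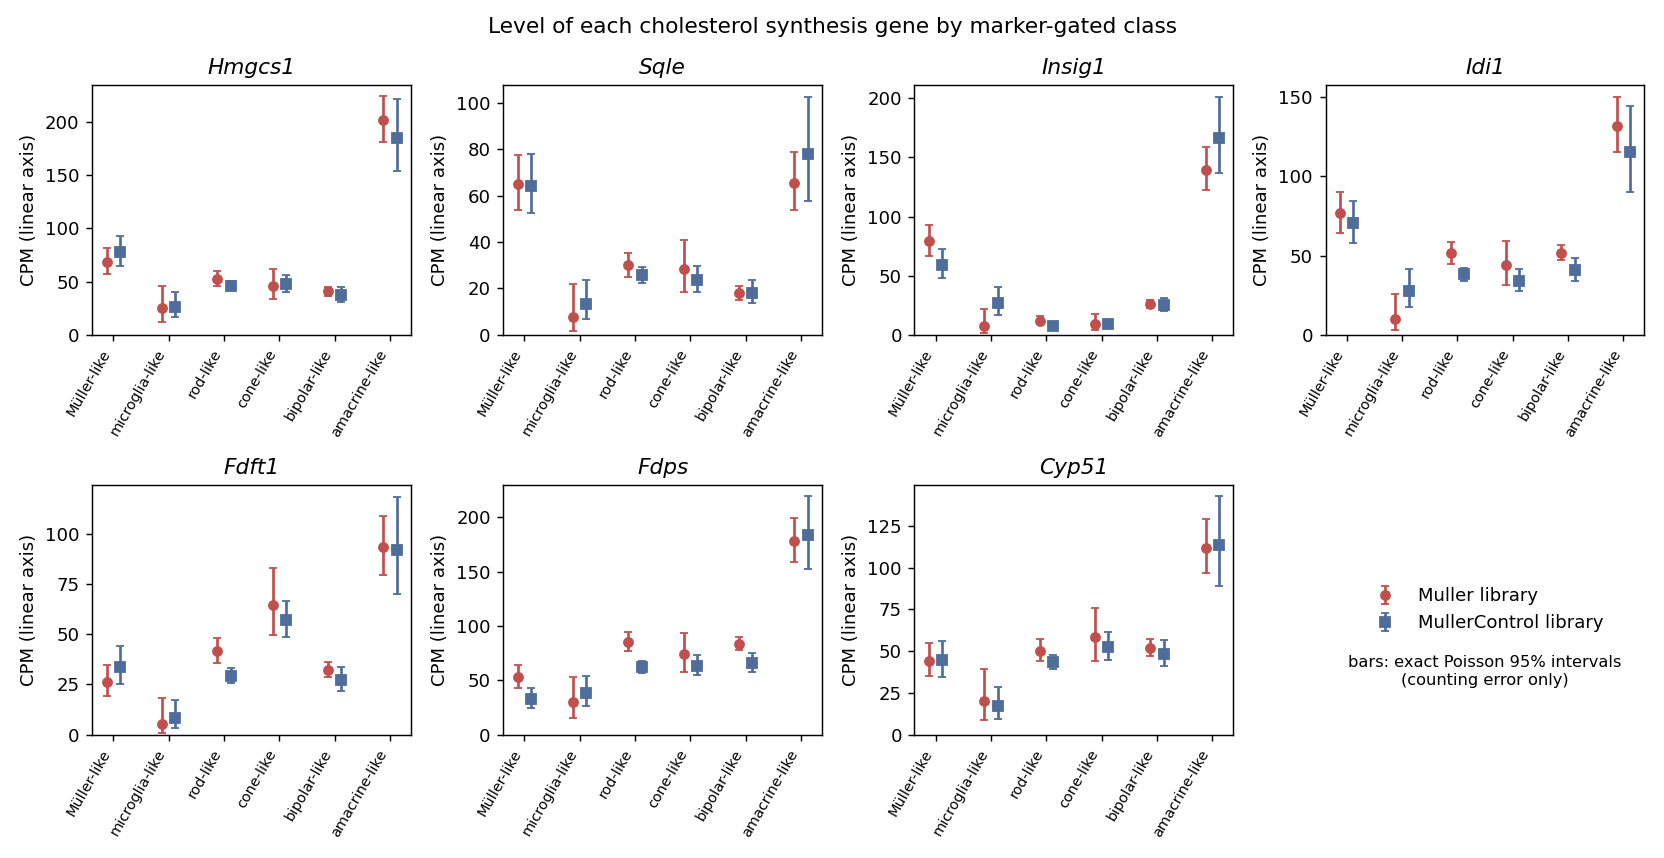
Level of each of the 7 genes (y axis, CPM, linear) in the 6 marker-gated classes (x axis), with red circles for the Muller and blue squares for the MullerControl library and bars for exact Poisson 95% intervals. Amacrine-like cells have the highest point in all panels, and Müller-like cells stand second for Hmgcs1, Sqle, Insig1 and Idi1 but not for Fdft1, Fdps and Cyp51.

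Hmgcs1 (ENSMUSG00000093930, GRCm38 chr13:119690379-119708260, plus strand) encodes cytosolic HMG-CoA synthase, which makes HMG-CoA at the entry to the mevalonate pathway. Müller-like cells held 68.6 CPM (57.1 to 81.6) from 126 UMIs in the Muller library and 78.0 CPM (64.9 to 93.0) from 125 UMIs in the MullerControl library. The levels were 52.5 and 46.1 CPM in rod-like, 45.8 and 47.3 CPM in cone-like and 40.7 and 37.1 CPM in bipolar-like cells, and 202 and 185 CPM in amacrine-like and 25.1 and 26.4 CPM in microglia-like cells. Müller-like cells stood above the photoreceptor and bipolar classes in both libraries and far below amacrine-like cells. The log2 ratio of Müller-like over rod-like cells was 0.39 (0.06 to 0.70) in the Muller library and 0.77 (0.46 to 1.05) in the control library, and over amacrine-like cells it was -1.55 (-1.86 to -1.26) in the Muller library and -1.25 (-1.62 to -0.87) in the control library.

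Idi1 (chr13:8885501-8892451, plus strand) encodes isopentenyl-diphosphate isomerase, which converts the first isoprenoid unit to its reactive partner. Its Müller-like level was 76.7 CPM (64.6 to 90.5) from 141 UMIs in the Muller library and 70.5 CPM (58.1 to 84.8) from 113 UMIs in the MullerControl library. Other classes had 51.4 and 38.2 CPM in rod-like, 43.8 and 34.2 CPM in cone-like and 51.9 and 40.9 CPM in bipolar-like cells, and 132 and 115 CPM in amacrine-like and 10.0 and 27.6 CPM in microglia-like cells. Müller-like cells again lay between amacrine-like cells and the rest. The intervals of their ratios over rod-, cone- and bipolar-like cells were all above 0, with 0.57 (0.28 to 0.84) in the Muller library and 0.79 (0.41 to 1.16) in the control library over bipolar-like cells.

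Fdps (chr3:89093588-89101959, minus strand) encodes farnesyl diphosphate synthase, whose product is shared by sterols, ubiquinone, dolichol and prenylated proteins. In Müller-like cells it was at 52.8 CPM (42.8 to 64.4) from 97 UMIs in the Muller library and 33.1 CPM (24.8 to 43.3) from 53 UMIs in the MullerControl library. The neuron-like classes had 85.6 and 62.0 CPM in rod-like, 74.0 and 63.4 CPM in cone-like and 83.6 and 65.9 CPM in bipolar-like cells, and the remaining classes had 179 and 184 CPM in amacrine-like and 30.1 and 38.4 CPM in microglia-like cells. Against rod-, cone- and bipolar-like cells the order was the opposite of Hmgcs1, and Müller-like cells lay below all 4 neuron-like classes in both libraries. Their log2 ratio to rod-like cells was -0.69 (-1.03 to -0.37) in the Muller library and -0.88 (-1.34 to -0.50) in the control library. A gene predicted on the same strand, Gm43738, overlaps Fdps but is not among the features of the deposited matrices.

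Fdft1 (chr14:63145150-63179578, minus strand) encodes squalene synthase, the first enzyme committed to sterols. Its level in Müller-like cells was 26.1 CPM (19.3 to 34.6) from 48 UMIs in the Muller library and 33.7 CPM (25.3 to 44.0) from 54 UMIs in the MullerControl library. It was at 41.5 and 29.3 CPM in rod-like, 64.6 and 57.0 CPM in cone-like and 32.1 and 27.2 CPM in bipolar-like cells, and at 93.3 and 91.8 CPM in amacrine-like and 5.01 and 8.41 CPM in microglia-like cells. Cone-like cells ranked second for this gene, and the ratio of Müller-like over cone-like cells was -1.30 (-1.88 to -0.74) in the Muller library and -0.74 (-1.23 to -0.31) in the control library. Against rod-like cells the ratio was -0.65 (-1.16 to -0.20) in the Muller library and 0.22 (-0.25 to 0.63) in the control library, so the libraries gave opposite signs and the interval included 0 in the latter. Fdft1 overlaps Ctsb on the opposite strand. Whether counting used the strand is not given in the sources used here. Microglia-like cells held 2226 and 2348 CPM of Ctsb and 5.01 and 8.41 CPM of Fdft1. The part of Ctsb in the Fdft1 levels was not tested.

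Sqle (chr15:59315077-59331192, plus strand) encodes squalene epoxidase, a rate-limiting enzyme of the later steps. Müller-like cells were at 64.8 CPM (53.7 to 77.5) from 119 UMIs in the Muller library and 64.3 CPM (52.5 to 78.0) from 103 UMIs in the MullerControl library. Levels elsewhere were 29.9 and 25.6 CPM in rod-like, 28.1 and 23.5 CPM in cone-like and 17.8 and 18.1 CPM in bipolar-like cells, and 65.5 and 77.8 CPM in amacrine-like and 7.52 and 13.2 CPM in microglia-like cells. Sqle was the gene for which Müller-like cells came closest to amacrine-like cells, with a log2 ratio of -0.02 (-0.40 to 0.37) in the Muller library and -0.29 (-0.78 to 0.24) in the control library. Over bipolar-like cells the Müller-like level had a log2 ratio of 1.86 (1.504 to 2.21) in the Muller library and 1.82 (1.35 to 2.32) in the control library.

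Cyp51 (chr5:4081145-4104746, minus strand) encodes lanosterol demethylase, which removes a methyl group from the closed sterol ring. The Müller-like level was 44.1 CPM (35.0 to 54.8) from 81 UMIs in the Muller library and 44.3 CPM (34.6 to 55.9) from 71 UMIs in the MullerControl library. In the neurons it was 50.1 and 43.2 CPM in rod-like, 58.3 and 52.3 CPM in cone-like and 51.9 and 48.2 CPM in bipolar-like cells, and it was 112 and 114 CPM in amacrine-like and 20.1 and 16.8 CPM in microglia-like cells. The Müller-like, rod-like and bipolar-like levels could not be separated in either library at this depth, with a Müller over rod log2 ratio of -0.17 (-0.57 to 0.19) in the Muller library and 0.05 (-0.35 to 0.41) in the control library. Cyp51 overlaps Akap9 on the opposite strand, which stood at 355 and 344 CPM in amacrine-like, 327 and 289.5 CPM in rod-like, 289.7 and 229.7 CPM in cone-like, 274 and 257 CPM in bipolar-like, 164 and 153 CPM in Müller-like and 158 and 106 CPM in microglia-like cells, and its part in the Cyp51 levels was not tested.

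Insig1 (chr5:28071363-28078662, plus strand) encodes the membrane protein that retains SCAP, is itself switched on by SREBP and so marks the feedback arm. Müller-like cells had 78.9 CPM (66.6 to 92.9) from 145 UMIs in the Muller library and 59.3 CPM (48.0 to 72.5) from 95 UMIs in the MullerControl library. The values were 11.9 and 7.23 CPM in rod-like, 9.38 and 8.72 CPM in cone-like and 26.1 and 25.03 CPM in bipolar-like cells, and 139.7 and 167 CPM in amacrine-like and 7.52 and 26.4 CPM in microglia-like cells. Among the 7 genes Insig1 set Müller-like cells furthest apart from photoreceptors. Its log2 ratio over rod-like cells was 2.72 (2.27 to 3.21) in the Muller library and 3.03 (2.57 to 3.51) in the control library, over cone-like cells 2.93 (2.11 to 4.23) in the Muller library and 2.73 (2.13 to 3.45) in the control library and over amacrine-like cells -0.82 (-1.13 to -0.52) in the Muller library and -1.49 (-1.90 to -1.08) in the control library.

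**Figure D2:**
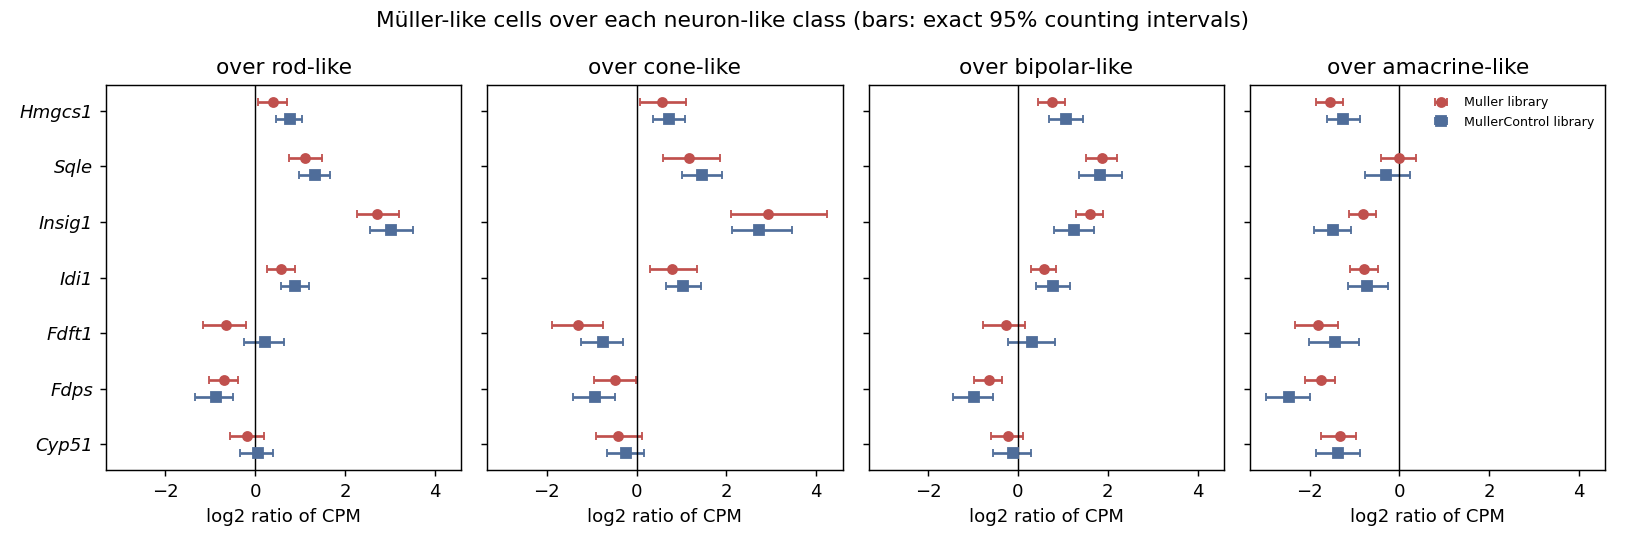
Log2 ratio of CPM (x axis) of Müller-like over rod-, cone-, bipolar- and amacrine-like cells in 4 panels for the 7 genes (y axis), by library, with bars for exact 95% counting intervals. Hmgcs1, Sqle, Insig1 and Idi1 lie right of 0 in the first 3 panels, Fdps lies left of 0 in all 4, and no gene lies above 0 with its interval in the amacrine panel.

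Set against the mean of the 4 neuron-like classes with equal weight, the 7 genes were not higher in Müller-like cells as a list. None was at least 2-fold higher in either library, where 17.2% and 17.4% of all measured genes were. One gene in each library was at least 2-fold lower, Fdft1 at -1.13 (-1.56 to -0.70) in the Muller library and Fdps at -1.48 (-1.89 to -1.08) in the control library, against 22.6% and 24.1% of all genes. The median log2 ratio of the 7 was -0.31 and -0.02, beside -0.20 and -0.23 over all measured genes. Sqle was on the higher side at 0.87 (0.56 to 1.18) in the Muller library and 0.82 (0.46 to 1.18) in the control library. The summed 7 gave -0.18 (-0.30 to -0.07) in the Muller library and -0.18 (-0.31 to -0.05) in the control library.

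That mean held the amacrine-like class, and without it the sum had the opposite sign. Over the mean of rod-, cone- and bipolar-like cells alone, a comparison added after the values were seen, the summed ratio was 0.38 (0.26 to 0.50) in the Muller library and 0.52 (0.40 to 0.65) in the control library. Sqle and Insig1, 2 of 7, exceeded 2-fold in Müller-like cells in both libraries, as 18.4% of all genes did. Sqle was at 1.34 (1.00 to 1.69) in the Muller library and 1.52 (1.19 to 1.85) in the control library. Insig1 was at 2.29 (1.96 to 2.62) in the Muller library and 2.11 (1.74 to 2.48) in the control library. Hmgcs1 and Idi1 were higher by less than 2-fold, at 0.56 and 0.64 in the Muller library and 0.85 and 0.90 in the control library. Fdft1, Fdps and Cyp51 had values below 0 in both, from -0.93 to -0.10, so the 7 genes did not share 1 direction between glia and these neurons.

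Amacrine-like cells were the class in which all 7 were high. Over the mean of rod-, cone- and bipolar-like cells, 7 of 7 were at least 2-fold higher in both libraries, where 17.3% of all genes were (22.7% in the Muller library and 25.6% in the control library). The median log2 ratio of the 7 was 1.36 and 1.62, beside 0.21 and 0.31 over all measured genes. Insig1 was at 3.11 (2.81 to 3.41) in the Muller library and 3.59 (3.24 to 3.95) in the control library. Hmgcs1 was at 2.11 (1.89 to 2.33) in the Muller library and 2.09 (1.81 to 2.38) in the control library. The smallest ratios were those of Fdft1, 1.01 (0.73 to 1.30) and 1.29 (0.90 to 1.68), and Cyp51, 1.06 (0.81 to 1.32) and 1.26 (0.91 to 1.61). These intervals reached below 2-fold, as did that of Fdps in the Muller library, 1.14 (0.94 to 1.34). This comparison was also chosen after the values were seen.

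For Hmgcs1, Insig1, Sqle, Idi1, Fdps and Cyp51, shares of single cells at equal depth also put amacrine-like cells first. For Sqle, Idi1 and Cyp51 their interval overlapped that of the next class in both libraries. For Fdft1 cone-like cells had the highest share, 6.56% (4.11 to 9.86) and 6.49% (4.86 to 8.47). Amacrine-like cells had 5.91% (3.96 to 8.42) and 6.33% (3.08 to 11.3), so the intervals overlapped. Each cell was thinned to 1000 UMIs to set cells of unequal depth side by side, and shallower cells were left out, 183 and 113 of the Müller-like, 1659 and 1734 of the rod-like and 8 and 1 of the amacrine-like cells. At least 1 UMI of Hmgcs1 was found in 16.9% (13.6 to 20.6) of amacrine-like, 5.77% (4.10 to 7.87) of Müller-like and 4.86% (3.96 to 5.90) of rod-like cells of the Muller library. The shares were 18.4% (12.7 to 25.3), 6.10% (3.98 to 8.87) and 4.52% (3.91 to 5.19) in the MullerControl library. Without thinning, 38.6%, 12.7% and 6.27% of those cells held a UMI in the former and 47.2%, 19.3% and 6.40% in the latter. Microglia-like cells, the lowest class by CPM, held it in 4.04% (1.11 to 10.0) and 1.91% (0.396 to 5.48) after thinning. The thinned intervals of Müller-like and rod-like cells overlapped for Hmgcs1. For Insig1 the thinned shares in amacrine-, Müller- and rod-like cells were 11.2% (8.49 to 14.4), 7.02% (5.17 to 9.28) and 1.00% (0.613 to 1.54) in the Muller library. They were 12.7% (7.91 to 18.9), 3.66% (2.06 to 5.96) and 0.730% (0.496 to 1.03) in the MullerControl library, and Müller-like cells stood above rod-like cells in both, while the Müller-like and amacrine-like intervals overlapped in the Muller library. Cells with UMIs of 2 or more different genes of the 7 made up 20.04% of amacrine-like, 5.30% of Müller-like and 3.61% of rod-like cells in the Muller library, and 19.0%, 4.88% and 2.26% in the MullerControl library. At most 5 of the 7 were seen together in 1 thinned cell, an amacrine-like cell.

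Amacrine cells release GABA or glycine, and the class was divided by transcripts of the GABA-making enzymes Gad1 and Gad2 and of the glycine transporter gene Slc6a9. Cells with Gad1 or Gad2 and no Slc6a9, 197 in the Muller library, had a summed level of 1150.5 CPM (1074 to 1231), and the 156 cells with Slc6a9 alone had 683 CPM (613 to 758). In the MullerControl library these values were 1052 CPM (818 to 1331) in 14 cells and 823 CPM (729 to 926) in 91 cells. One of the 14 cells held 21 of their 69 UMIs. Cells with both, 112 and 54, had 802 CPM (721 to 891) and 1057 CPM (931 to 1195). Every one of these groups lay above the summed Müller-like level of its library, so no single transmitter type held the high level alone. Hmgcs1 was at 279 CPM (242 to 319.7) in the first and 133 CPM (103 to 168) in the second group of the Muller library, but at 183 CPM (94.5 to 319) and 193 CPM (149 to 246) in the MullerControl library. Cells without a Gad1, Gad2 or Slc6a9 UMI may have lost it to depth.

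Müller-like cells differed widely in depth. Sqle and Insig1 had lower values in the shallowest ones, Hmgcs1 did not, and Cyp51 had its highest value in the deepest ones. Sqle was at 23.2, 46.2, 71.3 and 78.1 CPM in Müller-like cells of the Muller library with under 1000, 1000 to under 2000, 2000 to under 4000 and 4000 or more UMIs. In the MullerControl library the same bins gave 24.1, 47.4, 74.3 and 67.5 CPM. The lowest and highest Sqle bins of the Muller library had intervals of 4.78 to 67.7 and 57.2 to 104 CPM, which overlap, and the former rests on 3 UMIs. Insig1 was at 54.0 CPM (21.7 to 111) in the shallowest and 100.1 CPM (76.2 to 129) in the deepest Muller bin, and at 36.1 CPM (7.45 to 106) and 62.9 CPM (48.8 to 79.7) in the MullerControl bins. Hmgcs1 was at 100.3 and 79.8 CPM in the shallowest and deepest bins of the Muller library and at 108 and 75.8 CPM in those of the MullerControl library. Cyp51 was at 30.9, 33.4, 45.3 and 52.6 CPM from the shallowest to the deepest Muller bin and at 24.1, 11.8, 14.9 and 58.3 CPM in the MullerControl bins. The middle MullerControl bins, 1.43 to 42.8 and 4.05 to 38.1 CPM from 2 and 4 UMIs, lay below the deepest, 44.8 to 74.6 CPM. The shallowest MullerControl bin, 2.91 to 86.9 CPM, overlapped the deepest, and the Muller bins overlapped each other. Malat1, a nuclear RNA whose share falls in cells that have lost their nucleus, took 3.72%, 21.5%, 18.6% and 13.2% of the UMIs of these bins in the Muller library, from the shallowest to the deepest, and 3.58%, 7.26%, 15.8% and 12.9% in the MullerControl library. Müller-like cells with at least 5% Malat1 had a summed level of the 7 genes of 409 CPM (379 to 441) and 393 CPM (361 to 427), and those under 5% had 435 CPM (348 to 538) and 309 CPM (234 to 399.9). The part of depth and nuclear RNA in the levels was not tested.

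**Figure D3:**
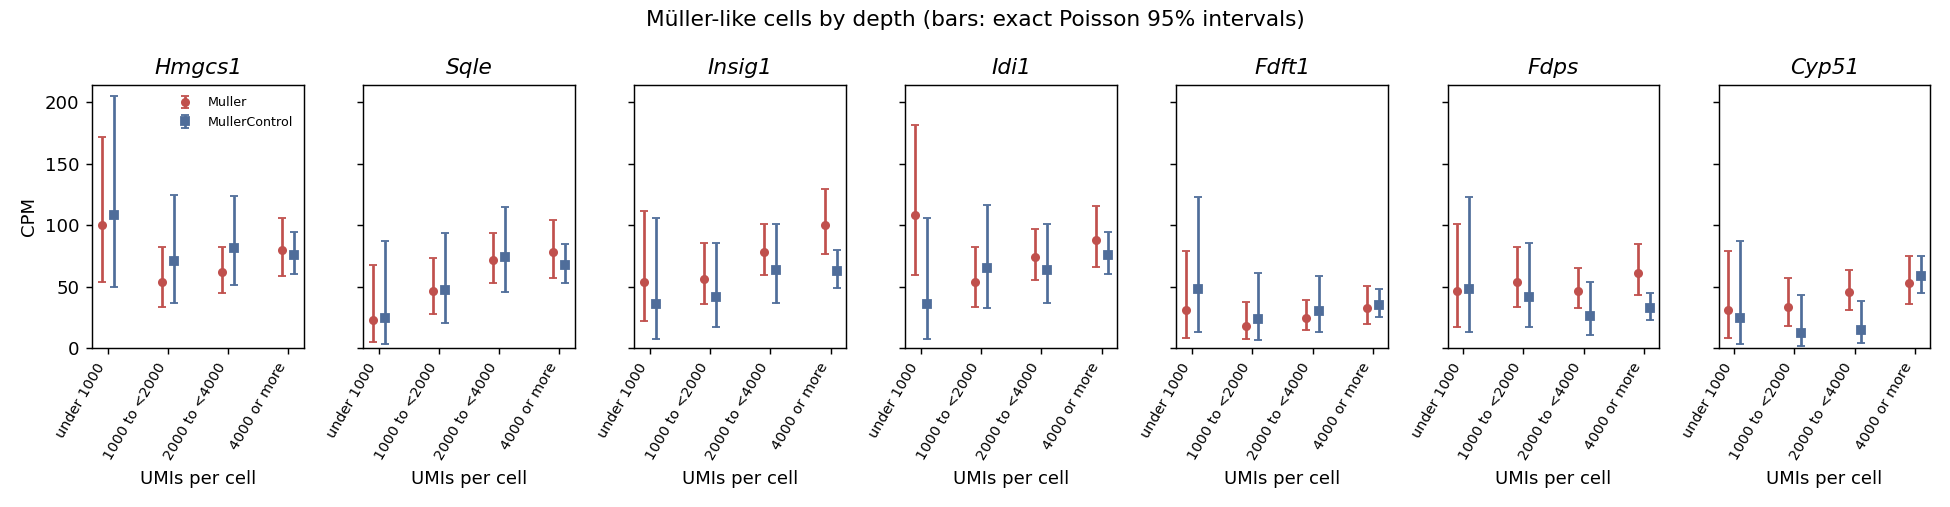
Level of each gene (y axis, CPM) in Müller-like cells binned by UMIs per cell (x axis), by library, with exact Poisson 95% intervals. Sqle and Insig1 have their lowest points in the shallowest bin, and the intervals of that bin are wide for all 7 genes.

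The control group allowed the 7 genes to be compared between the libraries within each class. In Müller-like cells the sum gave a log2 ratio, Muller over MullerControl, of 0.10 (-0.05 to 0.26). One gene of 7, Fdps, was at least 1.5-fold higher, from 97 against 53 UMIs at 0.66 (0.18 to 1.19), where 6.44% of all genes were, and none was lower, where 6.3% were. Insig1 stood at 0.41 (0.03 to 0.80). These 2 of the 7 had intervals above 0, which 5.81% of all genes had. Hmgcs1 was at -0.19 (-0.55 to 0.18), Sqle at 0.01 (-0.38 to 0.41), Idi1 at 0.12 (-0.25 to 0.49), Fdft1 at -0.36 (-0.96 to 0.22) and Cyp51 at -0.01 (-0.49 to 0.47), and a difference was not detectable at this depth. The median of the 7 was 0.01, beside -0.05 over all measured genes. Malat1 took 16.4% of the Müller-like total for Muller and 12.3% for MullerControl, the median depth was 1851 and 2476 UMIs, and their part in these ratios was not tested.

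Ratios above 0 also appeared in neuron-like classes. Rod-like cells had a summed ratio of 0.36 (0.26 to 0.46), with Insig1 at 0.72 (0.16 to 1.26), Fdft1 at 0.51 (0.23 to 0.78), Fdps at 0.47 (0.28 to 0.66) and Idi1 at 0.43 (0.18 to 0.67). Of the 7, 1 was at least 1.5-fold higher in rod-like cells, where 13.0% of all genes were, and 4 had intervals above 0, where 19.7% had. All 8 Müller genes of the gauge were at least 1.5-fold higher in rod-like cells of the Muller library too, with a median log2 ratio of 1.52, and amacrine markers there stood at 3.77% against 0.598% of their amacrine-like level. The part of free transcripts in these ratios was not tested. Bipolar-like cells had a summed ratio of 0.21 (0.10 to 0.33), with Fdps at 0.34 (0.12 to 0.57). In cone-like cells none of the 7 had an interval that left out 0, where 6.39% of all genes had one above and 7.05% one below, and amacrine-like cells had a summed ratio of -0.02 (-0.15 to 0.12). Microglia-like cells had -0.56 (-1.12 to -0.07), but 1 cell held 26 of the 131 UMIs of the MullerControl sum, and without it the ratio was -0.26 (-0.83 to 0.25), a setting added after seeing the data. Fdps was thus higher in the Muller library in Müller-, rod- and bipolar-like cells alike, and the test virus and the library cannot be told apart.

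**Figure D4:**
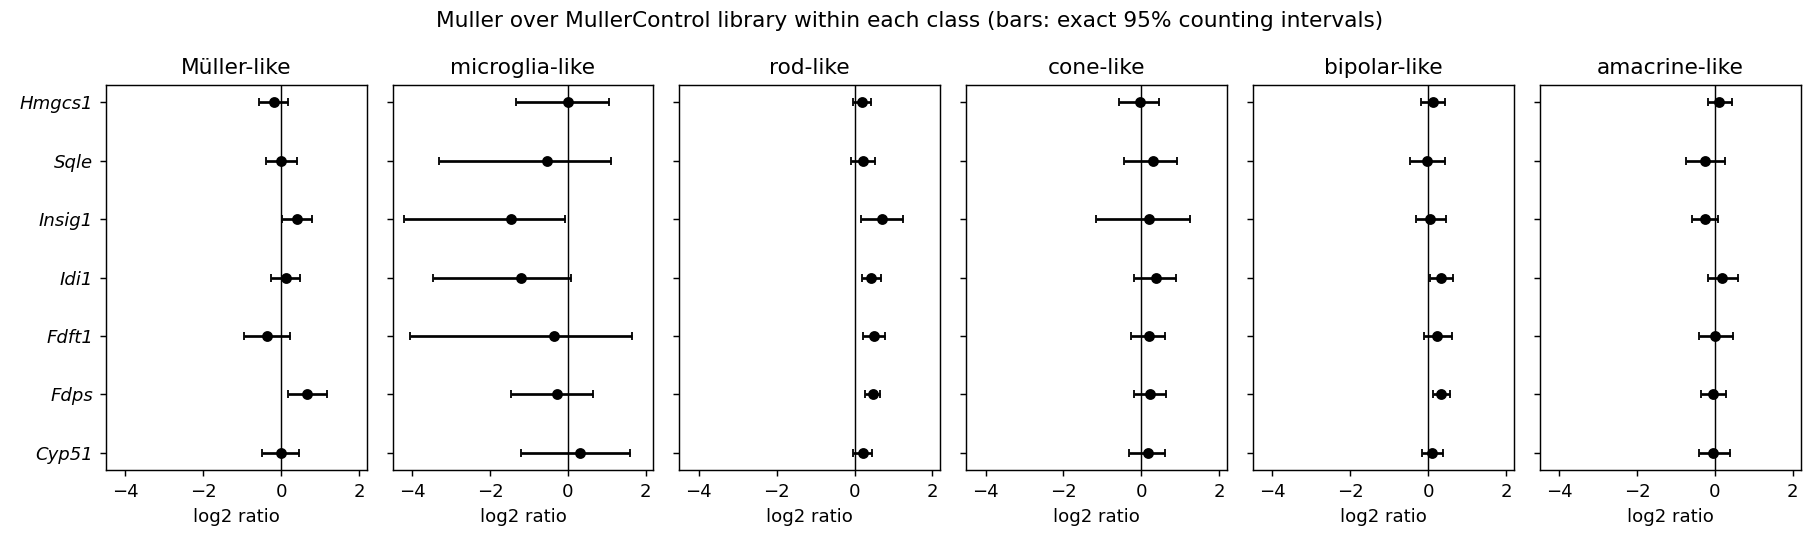
Log2 ratio of CPM, Muller over MullerControl (x axis), of each gene in the 6 classes, with exact 95% counting intervals. In Müller-like cells only Insig1 and Fdps have intervals right of 0, and the microglia-like intervals are the widest.

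The 15 other enzymes of the pathway were measured in the same classes. Against the mean of the 4 neuron-like classes, 2 of 15 in the Muller library and 1 of 15 in the control library reached a 2-fold higher level in Müller-like cells and none was at least 2-fold lower, with medians of 0.12 and 0.30. Msmo1, which acts on the methyl groups after Cyp51, was at 1.09 and 0.76. Values of Acat2 were 0.78 and 0.73, of Mvk -0.05 and 0.30, of Pmvk -0.67 and 0.04 and of Mvd -0.18 and -0.72, the enzymes before Idi1. After Sqle, Lss was at -0.09 and 0.13, Tm7sf2 at 0.84 and 0.48, Lbr at 0.12 and -0.16, Nsdhl at -0.61 and 0.58, Hsd17b7 at 0.57 and 0.76, Ebp at 0.13 and 0.30, Sc5d at 0.76 and 0.55 and Dhcr7 at 0.10 and 0.07. Over rod-, cone- and bipolar-like cells alone, 5 and 4 of the 15 reached a 2-fold higher level in Müller-like cells (20.9% and 21.7% of all genes) and none a 2-fold lower one (20.2% and 21.6%), with medians of 0.66 and 0.82. In amacrine-like cells 9 and 8 of the 15 were at least 2-fold higher than in rod-, cone- and bipolar-like cells, where 22.7% and 25.6% of all genes were, with medians of 1.16 and 1.09. Msmo1 was at 1.63 and 1.31 in Müller-like and 1.48 and 1.52 in amacrine-like cells over those classes.

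**Figure D5:**
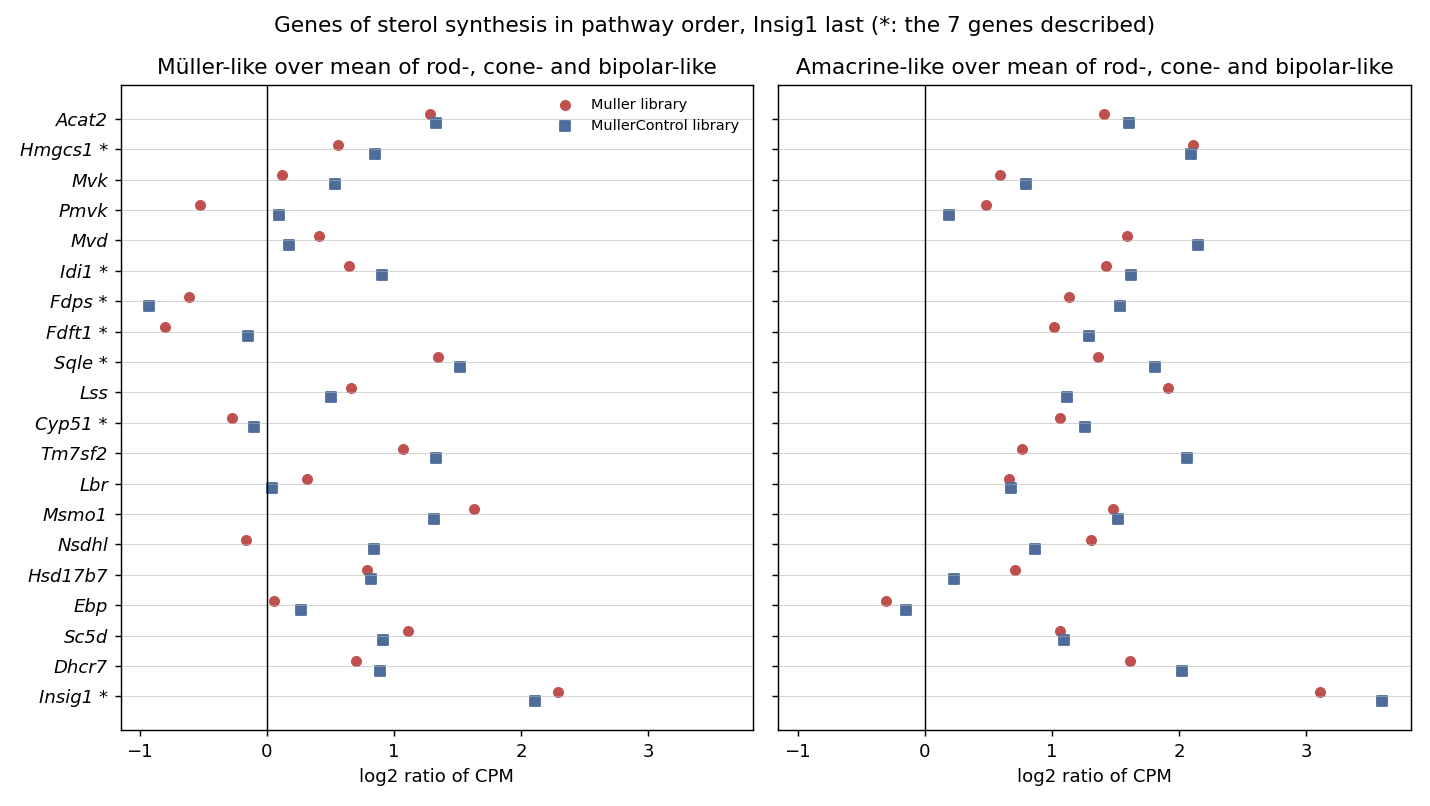
Log2 ratio of CPM over the mean of rod-, cone- and bipolar-like cells (x axis) for Müller-like (left) and amacrine-like cells (right), for 20 genes of sterol synthesis in pathway order (y axis), by library. In Müller-like cells the points lie on both sides of 0, with Fdps and Fdft1 at the left, and in amacrine-like cells only Ebp lies below 0.

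Several genes around the pathway had larger ratios between glia and neurons than any of the 7. Of the 6 measured genes that sense sterol or release SREBP, 2 reached a 2-fold higher level in Müller-like cells than in the mean of the 4 neuron-like classes in both libraries. These were Srebf1, which encodes the SREBP of fatty acid synthesis, at 2.17 and 1.99, and Srebf2, which encodes the SREBP of cholesterol synthesis, at 1.26 and 1.19. Over rod-, cone- and bipolar-like cells Srebf2 was at 2.45 and 2.14 in Müller-like and at 2.62 and 2.24 in amacrine-like cells. Of the 7 genes, Insig1 and Sqle also exceeded 2-fold in both of these classes. Hmgcs1, Idi1, Fdps, Fdft1 and Cyp51 did not in Müller-like cells. Srebf1 was at 2.05 and 1.69 in Müller-like but -0.56 and -2.12 in amacrine-like cells. Insig2 was at 0.12 and 0.19 and Mbtps2, a protease that releases SREBP, at 0.83 and 0.56.

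Of the 9 measured genes of sterol uptake and transport inside the cell, 4 were at least 2-fold higher and 1 lower in Müller-like cells in both libraries. Lrp1, a receptor for apolipoprotein E, was at 2.74 and 2.35, Npc2 at 1.75 and 1.93 and Npc1 at 1.09 and 1.02, the pair that exports cholesterol from lysosomes, and Vldlr, a lipoprotein receptor, was at -2.72 and -3.15. Among the 10 measured genes of sterol export and breakdown, 4 and 3 were higher and 1 and 2 lower. Apoe was at 5.64 and 7.32, from 7536 and 11420.5 CPM in Müller-like cells, and Cyp27a1, a sterol hydroxylase, was at 5.85 and 5.95. Soat1, which makes cholesterol esters, was at 1.75 and 1.34 and the exporter gene Abcg1 at -1.34 and -1.24. The 8 genes of the isoprenoid branch that leaves the pathway after Fdps had none at least 2-fold higher in either library, and 0 and 1 lower, with Ggps1, the geranylgeranyl diphosphate synthase gene, at -0.53 and -0.60, Pdss1, of ubiquinone synthesis, at -0.43 and -1.07, Dhdds, of dolichol synthesis, at -0.08 and -0.73 and Fntb, a subunit of farnesyltransferase, at -0.92 and -0.85. Fatty acid synthesis had 5 and 4 of 11 measured genes higher and 4 of 11 lower in both, with the elongase gene Elovl5 at 3.27 and 3.58, the desaturase genes Fads2 at 3.02 and 2.73 and Scd2 at 2.33 and 2.52. Scd1 was listed with 1 UMI in Müller-like cells of the Muller library and 0 in those of the MullerControl library. The share of all genes at least 2-fold higher or lower in this comparison is the one given above for the 7 genes.

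Over the 12 class sums, which come from 2 libraries and so share depth and handling within a library, the 7 genes followed each other to different degrees. The Pearson correlation of log2 CPM of each gene with the mean of the other 6 was 0.961 for Hmgcs1, 0.952 for Idi1, 0.901 for Cyp51, 0.859 for Sqle, 0.797 for Fdft1, 0.779 for Fdps and 0.744 for Insig1. The 21 pairs ran from 0.454 to 0.95 with a median of 0.804. Of 7330 eligible genes, those whose pattern was most like the mean of the 7 included Poldip2 at 0.964, Pikfyve at 0.952, Map3k4 and Srrt at 0.95, Frmd5 at 0.948, Nr2f2 at 0.947, Mical3 and Krit1 at 0.942 and Gm26930 at 0.941. No other enzyme of the sterol list was among them, but many of these could not be. Acat2, Mvk, Mvd, Lss, Tm7sf2, Lbr, Nsdhl, Hsd17b7 and Dhcr7 stayed under 50 CPM in every sum and so were not eligible. These correlations are descriptions over few sums.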

How the data were processed

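Single-cell transcripts of sorted retinal cells were read from 2 deposited matrices of raw UMI counts per gene and barcode, which per the file headers came from Cell Ranger 4.0.0 and were not normalized. Seurat 4.0.5 and the builds mm10 and GRCh38 stand in the submitters' processing notes with no role. No barcode had under 500 UMIs, and library totals were 25622379 and 23549118 UMIs. The protocol names both a v3.1 kit and a v2 library protocol. Barcodes under 300 genes or over 20% mitochondrial UMIs, 429 and 905, were dropped. The highest Scrublet scores (scanpy 1.11.5), 0.8% per 1000 barcodes, removed 1130 (9.51%) and 866 (8.32%) cells, because the automatic threshold called 2 and 0 cells and did not work.

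Classes were gated on marker lists, UMIs were summed per class and library, and ratios had 1 count added. Means over neuron-like classes weight classes equally, with intervals by the delta method, and ratios of 2 sums have exact conditional binomial 95% intervals. Intervals of cell shares are exact binomial (Clopper-Pearson). A gene was measured with at least 20 UMIs in the classes compared, and called at 2-fold between classes or 1.5-fold between libraries. No test was made, since each group has 1 library and cells are not replicates. The 7 members and the gene lists were chosen with earlier results of these data known. Named genes were the 7, the 15 other sterol enzymes, up to 4 of each other list with the largest mean absolute log2 ratio of Müller-like over neuron-like cells, and the 10 most correlated genes with at least 100 UMIs and 50 CPM in 1 sum, on log2(CPM + 10). Some genes that this rule selects are not reported here, while counts and medians cover whole lists. Glul, Clu, Ptn and Dbi were named as members of the held-out Müller list, and Malat1, Ctsb, Akap9, Gm43738, Gad1, Gad2 and Slc6a9 for the check they serve. Gene positions are GENCODE M21 on GRCm38. The calculations were tested on simulated counts. The tools were pandas 2.3.3, scipy 1.17.1, numpy 2.4.6, matplotlib 3.10.9 and anndata 0.12.19 under Python 3.11.15. Alternatives changed the gate, filters, doublet removal, depth, denominator and the neurons compared.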

Additional observations from a re-analysis of the deposited data

Results flagged for a closer look

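Insig1 had ratios of Muller over MullerControl of opposite sign in different classes, with intervals that left out 0. Its log2 ratio was -1.46 in microglia-like cells, from 3 against 22 UMIs, but 0.41 in Müller-like cells, and rod-like cells had 0.72. The summed 7 genes, Insig1 among them, were split between partly different classes, with -0.56 in microglia-like cells against 0.36 in rod-like and 0.21 in bipolar-like cells. In Müller-like cells the interval of the sum included 0, at 0.10 (-0.05 to 0.26). One MullerControl microglia-like cell held 26 of the 131 UMIs of the microglia-like sum, and without it the microglia-like ratio was -0.26 with an interval that included 0 (-0.83 to 0.25). With 1 library per group the difference between classes was not tested.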

How the results depend on the processing

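The neurons chosen for the comparison changed the summed ratio of the 7 genes in Müller-like over neuron-like cells. It was -0.18 in both libraries as reported, 0.13 (Muller) and 0.41 (MullerControl) with neuron-like cells summed, -0.33 and -0.37 without rod-like cells, and 0.38 and 0.52 without amacrine-like cells, an alternative added after seeing the data. The count of the 15 other sterol enzymes past 2-fold in Müller-like cells, 2 and 1 as reported, was 1 and 3 with cells thinned to 1000 UMIs, 4 and 4 with neuron-like cells summed and 5 and 4 without amacrine-like cells. Between libraries, the count of those enzymes at least 1.5-fold lower went from 1 to 2 with cells of at least 2000 UMIs. For single genes, 180 of 196 values under other settings stayed within the reported interval and 12 changed sign. Without amacrine-like cells, 13 of 14 further values left that interval and 2 changed sign, with Hmgcs1 at 0.56 (Muller) and 0.85 (MullerControl) and Insig1 at 2.29 and 2.11. The ranges that follow leave out that setting. Fdps between libraries ranged from 0.60 to 0.76 and Insig1 from 0.35 to 0.69. Insig1 over neuron-like cells of the MullerControl library ranged from -0.17 to 1.76, and Hmgcs1 from -0.52 to 0.16 in the Muller library and from -0.25 to 0.65 in the control library. No paired analysis was possible because each group has 1 library and the result comes from no test. Depth limits Müller-like levels to 48 to 145 UMIs per gene and library.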
